A study of Mus musculus with 15 samples.

Results

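Esr1, Egfr, Erbb3, Met, Prlr, Insr, Gcgr, Lifr and Pgrmc1 encode receptors through which the liver reads hormones and growth factors, and they were followed in diet-induced liver tumors, in the liver around those tumors and in liver of chow-fed mice. The 9 genes were chosen by name, with earlier results of the same arrays known, and their levels were among the values that chose them. Their levels are therefore a description here. How many of them the fit over all genes called is stated only beside the count or share over all genes. No p is given for any of the 9 genes. Of the 9 genes, 8 had a named probe among the 19057 genes with one, on 20 probes in all. Prlr had no named probe and was not analysed here. All mice were males of the 129S1/SvImJ;C57Bl/6J strain, an inbred cross of both parent strains, and were killed after 52 weeks on diet. Tumors came from 5 mice given a high-fat Western diet with fructose and glucose in the drinking water (WD SW), and WD SW livers were the tissue adjacent to the tumors of the same 5 mice. CD NW livers came from 5 mice on chow and normal water. Each array held the RNA of 1 piece of tissue. Every WD SW liver came from a mouse that bore tumors and no CD NW liver did, so between these livers an effect of diet and one of nearby tumors cannot be told apart.

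The receptors fall into several classes. Esr1 encodes estrogen receptor alpha, a transcription factor that binds DNA once estradiol occupies it, and in mouse liver it also takes part in lipid handling. Egfr, Erbb3, Met and Insr encode receptor tyrosine kinases: Egfr binds EGF and its relatives, Erbb3 binds neuregulins but needs a partner such as Egfr or Erbb2 to signal, Met binds hepatocyte growth factor, and Insr binds insulin. Egfr and Met carry the growth signals of liver regeneration. Gcgr is the G protein-coupled receptor for glucagon, which raises cAMP and drives glucose output in fasting. Prlr and Lifr are cytokine receptors that signal through JAK kinases and STAT factors, Lifr together with gp130. Pgrmc1 is a heme-binding membrane protein of the endoplasmic reticulum that partners cytochrome P450 enzymes.

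Of the 20 receptor probes, 8 were above background on all 15 arrays and 6 on none. A probe was called above background where its detection p, the share of stand-in negative control probes at or above its signal, was under 0.01. In the comparison of tumors with WD SW livers, 6 of the receptor genes passed the filter on dim probes, above background on at least 5 of the 10 arrays, and 2 of them, Esr1 and Egfr, were past an adjusted p of 0.05 in limma's fit over all genes, both lower in tumors. Over all 8674 genes tested, 4.0% were past that threshold in either direction and 2.04% were lower. With the mouse as a block, both genes were called again, against 10.4% of all genes. The levels of tumors and WD SW livers did not overlap for the same 2 genes, against 5.67% of all genes. In the comparison of WD SW with CD NW livers, 5 receptor genes passed the filter, none of them was called and none had groups that did not overlap. Over all 8429 genes tested there, 9.79% were called and 10.1% did not overlap. The receptors were chosen on these levels, so nothing is read from those counts, which support none of the differences below.

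Because Esr1 and Egfr were both lower in tumors, the stretch of DNA just before each gene's start is shown, beside that of Pgrmc1, whose level hardly moved. The sequences are from RefSeq, build GRCm38.p6, which held promoter windows for 7 of the 9 receptor genes. Each is the 250 bases before the start, 5′ to 3′ on the plus strand, at chr10:4611739-4611988 for Esr1, chr11:16751953-16752202 for Egfr and chrX:36597943-36598192 for Pgrmc1. Capitals mark matches, on either strand, to the GC box GGGCGG, the TATA box TATAAA, the CCAAT box CCAAT, the nuclear receptor hexamer AGGTCA or the STAT site TTCNNNGAA, motifs that do not overlap one another in these windows.
Esr1: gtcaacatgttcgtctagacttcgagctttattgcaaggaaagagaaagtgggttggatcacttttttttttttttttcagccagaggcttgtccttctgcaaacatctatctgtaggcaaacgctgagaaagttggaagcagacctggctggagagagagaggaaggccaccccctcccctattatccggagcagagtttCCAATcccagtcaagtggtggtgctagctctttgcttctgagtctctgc
Egfr: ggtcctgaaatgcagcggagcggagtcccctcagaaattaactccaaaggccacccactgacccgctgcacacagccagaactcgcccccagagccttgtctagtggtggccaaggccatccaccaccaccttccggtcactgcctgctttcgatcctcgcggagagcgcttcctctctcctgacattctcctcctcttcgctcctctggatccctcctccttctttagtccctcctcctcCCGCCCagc
Pgrmc1: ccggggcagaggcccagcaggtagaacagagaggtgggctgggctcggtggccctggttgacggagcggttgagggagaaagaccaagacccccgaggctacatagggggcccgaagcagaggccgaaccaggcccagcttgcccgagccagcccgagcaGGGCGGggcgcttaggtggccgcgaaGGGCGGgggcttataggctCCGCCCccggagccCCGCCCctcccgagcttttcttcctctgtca
The Esr1 window, at the first of its 2 listed starts, held 1 CCAAT box and no GC box, the Egfr window 1 GC box and the Pgrmc1 window 4 GC boxes. Among receptor windows not shown, that of Met held 3 GC boxes, that of Gcgr 2, those of Lifr 2 and 0, and those of Prlr none. The window of the other Esr1 start, chr10:4709908-4710157, which is not shown, held 1 STAT site and none of the other motifs. Of all 32851 RefSeq promoter windows cut to the same 250 bases, 33.9% held a CCAAT box, 32.7% a GC box, 12.4% a TATA box, 14.0% the nuclear receptor hexamer and 7.02% the STAT site. G and C made up 47.6% of the Esr1 window, 60.8% of the Egfr window and 69.6% of the Pgrmc1 window. A match describes the letters only, and the absence of one says only that these letters are not in the window. The genes shown were picked by their levels, and a link of motifs to levels was not tested.

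Esr1 was lower in every tumor than in any liver. Its probe above background on all 15 arrays, ILMN_2726412, gave log2 levels of 5.93, 5.77, 5.96, 6.23 and 5.83 in the tumors of mice 4N, 4R, 5N, 5R and 6L, against 8.20, 7.99, 7.23, 7.83 and 7.26 in the WD SW livers of the same mice. CD NW livers 1L, 1R, 2L, 2N and 3N gave 8.41, 8.24, 7.74, 6.41 and 7.24. The tumors lay close together and near background, while the CD NW livers spanned the widest range and held in 2N the liver level nearest to the tumors. Group means were 5.95 ± 0.18 in tumors, 7.70 ± 0.44 in WD SW livers and 7.61 ± 0.81 in CD NW livers (SD, n = 5 each). The difference of tumors from WD SW livers was -1.76 on the log2 scale (SE 0.21), or 3.38-fold lower, with a gap of 1.0 between the highest tumor and the lowest WD SW liver. Against CD NW livers it was -1.66 (SE 0.32), with a gap of 0.18. The liver groups overlapped, with CD NW livers 1L and 1R above and 2N below all WD SW livers, and WD SW minus CD NW was 0.09 (SE 0.35).

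Each tumor was also below the liver of its own mouse in Esr1, with log2 differences of -2.27 in 4N, -2.22 in 4R, -1.27 in 5N, -1.59 in 5R and -1.43 in 6L. The size of the Esr1 difference moved with the treatment of background: it was -1.05 with no background correction, -1.23 with another background correction and -1.03 in the authors' processed values. Over 21 alternatives the difference ranged from -1.87 to -1.03. The other 3 Esr1 probes were above background on no array and gave no measure of the gene.

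**Figure D1:**
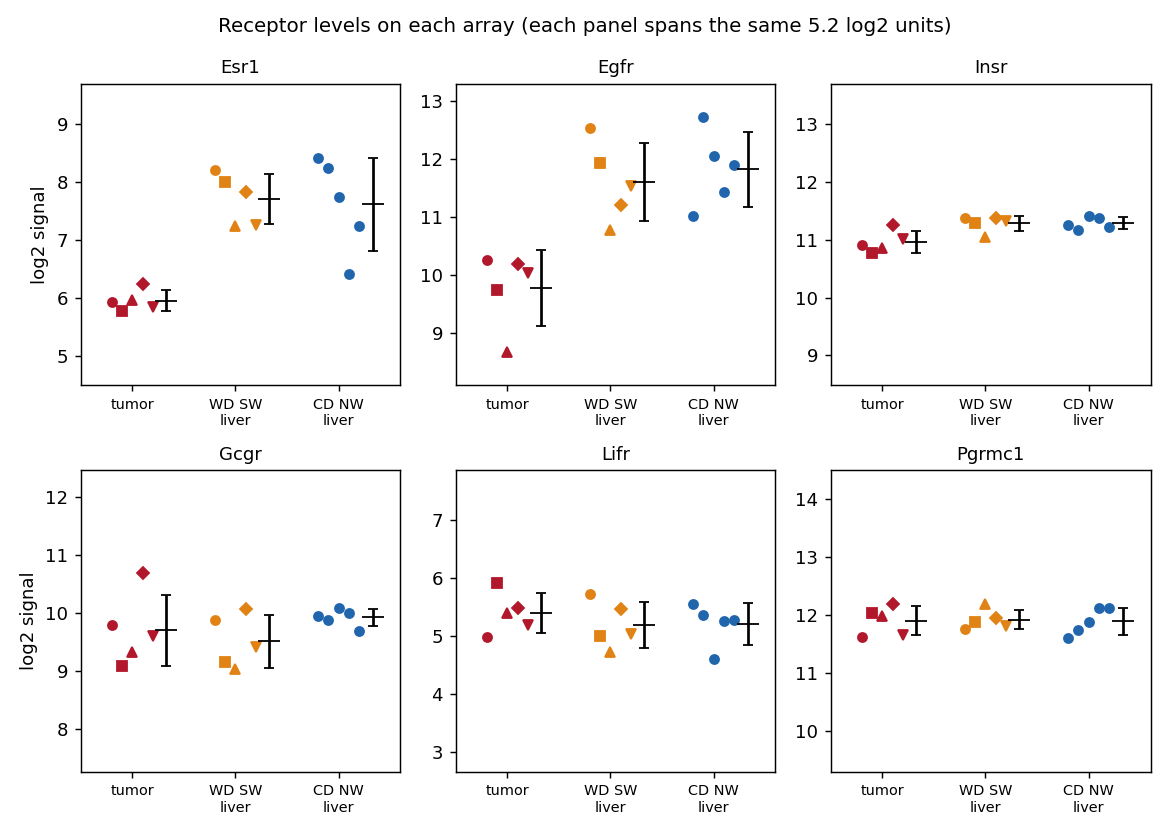
Log2 signal (y axis) of the brightest probe of 6 receptor genes on each array, in tumors, WD SW livers and CD NW livers. Points are arrays, with one shape per mouse in tumors and WD SW livers (circle 4N, square 4R, upward triangle 5N, diamond 5R, downward triangle 6L) and circles for all CD NW mice, and bars give mean and SD. The Esr1 and Egfr tumors sit below all WD SW livers, and the groups overlap for Insr, Gcgr, Lifr and Pgrmc1.

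Egfr was lower in tumors by nearly the same factor as Esr1 with the main background correction. Its brightest probe, ILMN_1241496, gave 10.27, 9.74, 8.67, 10.18 and 10.04 in the tumors of mice 4N, 4R, 5N, 5R and 6L, against 12.54, 11.94, 10.78, 11.22 and 11.53 in their livers. CD NW livers 1L, 1R, 2L, 2N and 3N gave 11.02, 12.74, 12.05, 11.44 and 11.90. All tumors were below all livers, with 5N lowest among the tumors and lowest among the WD SW livers. Means were 9.78 ± 0.65 in tumors, 11.60 ± 0.67 in WD SW livers and 11.83 ± 0.65 in CD NW livers (SD, n = 5 each). Tumors differed from WD SW livers by -1.82 (SE 0.36), or 3.53-fold lower, and the nearest tumor and liver were 0.51 apart. Within mice, tumor minus liver was -2.27 in 4N, -2.20 in 4R, -2.11 in 5N, -1.03 in 5R and -1.49 in 6L. Over 21 alternatives the Egfr difference ranged from -2.15 to -1.54, whereas that of Esr1 shrank to -1.03.

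Egfr was measured by several bright probes, 4 of its 6 being above background on all 15 arrays. The probe table lists transcript NM_207655 for ILMN_2693922, NM_007912 for ILMN_3052260 and ILMN_3128725, and none for the brightest. All 4 were lower in tumors than in WD SW livers, with differences of -1.82 for the brightest probe, -1.71 for the NM_207655 probe and -1.88 and -1.73 for both NM_007912 probes, and in every mouse each of the 4 was lower in the tumor. Only the brightest probe had groups that did not overlap. Between the diets the sizes varied by probe, and the difference between probes was not tested: WD SW minus CD NW was -0.23 (SE 0.35) for the brightest probe and -0.46 (SE 0.43) for the NM_207655 probe, against -0.92 (SE 0.40) and -0.90 (SE 0.35) for the NM_007912 probes. ILMN_3052260 gave 11.35, 9.63, 9.34, 9.46 and 10.95 in WD SW livers 4N, 4R, 5N, 5R and 6L, against 10.24, 11.20, 11.64, 11.27 and 10.98 in CD NW livers 1L, 1R, 2L, 2N and 3N. WD SW livers 4R, 5N and 5R were below every CD NW liver on this probe, while 4N and 6L lay among them.

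In tumors ILMN_3052260 gave 8.75, 7.45, 7.32, 8.02 and 9.79, and tumor 6L lay above WD SW livers 4R, 5N and 5R. As a description over the 15 arrays, which share their groups, the 2 NM_007912 probes correlated with each other at r = 0.995 and the other pair at r = 0.975, against 0.873 to 0.894 between the pairs. With group means removed, the values were 0.985 and 0.954 within pairs and 0.632 to 0.725 between them. Tumors were below CD NW livers on all 4 probes with no overlap, with log2 differences of -2.05 and -2.17 for the first pair and of -2.80 and -2.63 for the NM_007912 probes. The remaining Egfr probes were above background on 4 of the 10 liver arrays and no tumor (ILMN_2614432) and on no array (ILMN_2581001).

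**Figure D2:**
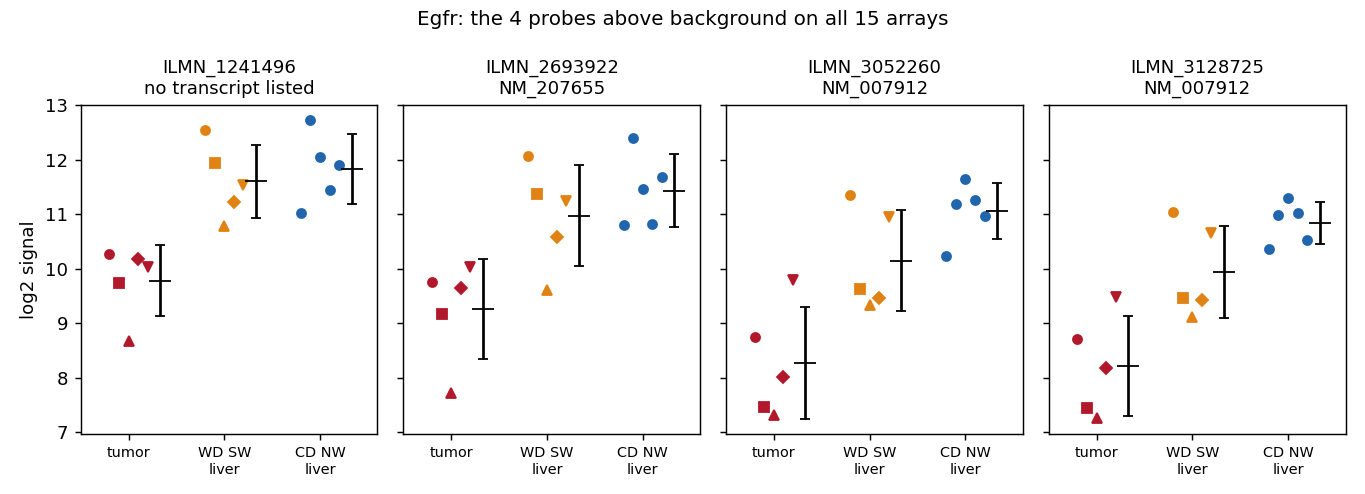
Log2 signal (y axis) of the 4 Egfr probes above background on all 15 arrays, in tumors, WD SW livers and CD NW livers, with the transcript the probe table lists. Points are arrays, shaped by mouse as in the plot of receptor levels, and bars give mean and SD. WD SW livers 4R, 5N and 5R lie below all CD NW livers on the 2 NM_007912 probes.

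Insr differed little between the groups. Its brightest probe, ILMN_1242794, gave 10.90, 10.77, 10.85, 11.25 and 11.004 in tumors of mice 4N, 4R, 5N, 5R and 6L, against 11.37, 11.28, 11.05, 11.37 and 11.33 in their livers and 11.25, 11.16, 11.41, 11.37 and 11.22 in CD NW livers 1L, 1R, 2L, 2N and 3N. Tumor 5R lay among the livers, and liver 5N lay among the tumors. The difference of tumors from WD SW livers was -0.33 (SE 0.13), and the tumor was below the liver in 5 of 5 mice, with log2 differences of -0.51 to -0.12. WD SW minus CD NW was 0.00 (SE 0.10). A second, dimmer Insr probe, ILMN_1251719, above background on 12 arrays, differed by 0.03 (SE 0.20) between tumors and WD SW livers and by -0.48 (SE 0.27) between WD SW and CD NW livers, and ILMN_2628026 was above background on no array. The mean of the kept Insr probes differed by -0.15 in tumors.

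Gcgr spread most in the mice with tumors. ILMN_2874278 gave 9.79, 9.08, 9.33, 10.68 and 9.60 in the tumors of mice 4N, 4R, 5N, 5R and 6L, against 9.88, 9.15, 9.03, 10.06 and 9.41 in their livers. CD NW livers 1L, 1R, 2L, 2N and 3N lay closer together, at 9.94, 9.88, 10.08, 10.001 and 9.69. Mouse 5R was highest and mice 4R and 5N lowest in both tissues. WD SW minus CD NW was -0.41 (SE 0.19), and the groups overlapped in mice 4N and 5R. Tumors differed from WD SW livers by 0.19 (SE 0.30), higher in 3 of 5 mice, and by -0.06 without tumor 5R.

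Pgrmc1 was level across the groups. ILMN_2623216 averaged 11.90 ± 0.25 in tumors (11.62 to 12.19), 11.92 ± 0.17 in WD SW livers (11.76 to 12.19) and 11.89 ± 0.23 in CD NW livers (11.60 to 12.12; SD, n = 5 each). The differences were -0.02 (SE 0.15) for tumors against WD SW livers and 0.03 (SE 0.13) for WD SW against CD NW livers.

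The other receptors were at the edge of detection. Lifr, on ILMN_2829008, was above background in 4 of 5 tumors, 2 of 5 WD SW livers and 1 of 5 CD NW livers, with levels of 4.99 to 5.92, 4.73 to 5.72 and 4.60 to 5.55 in that order, and tumors differed from WD SW livers by 0.20 (SE 0.23). Its other probes were above background in 2 tumors and in 1 WD SW liver. Met was above background on 1 tumor and 1 WD SW liver, with levels of 4.34 to 5.22 in tumors, 4.54 to 5.21 in WD SW livers and 4.50 to 5.29 in CD NW livers. Erbb3 was above background on no array, at 4.25 to 4.66 in tumors, 4.17 to 4.63 in WD SW livers and 4.23 to 4.70 in CD NW livers. No difference in Met or Erbb3 could be measured at these signals, and their probes do not show that either transcript is absent.

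**Figure D3:**
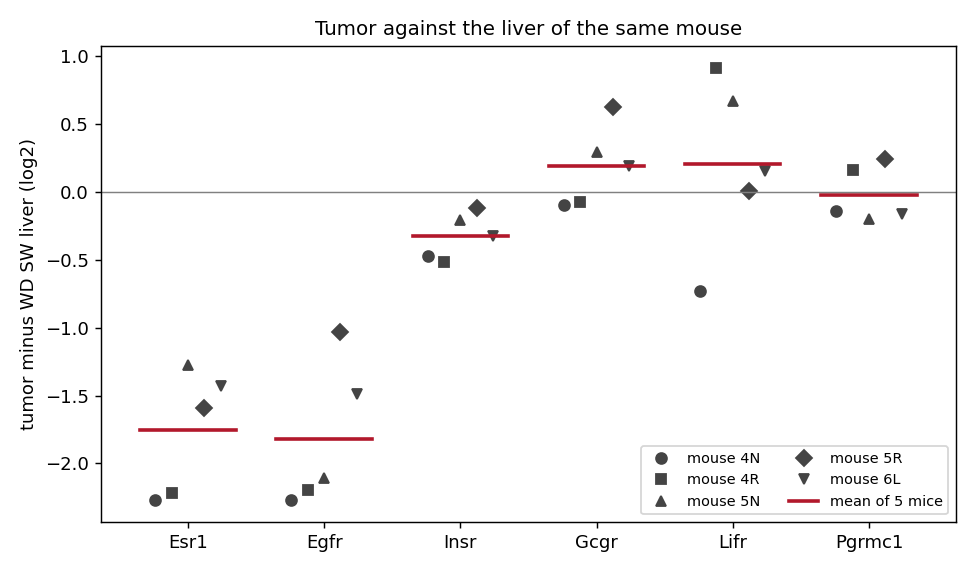
Tumor minus WD SW liver of the same mouse (y axis, log2) for the brightest probe of 6 receptor genes, with a shape for each of the 5 mice and a line at the mean. All 5 mice lie below 0 for Esr1, Egfr and Insr, and the mice lie on both sides of 0 for Gcgr, Lifr and Pgrmc1.

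Groups were ordered by the mean level of each gene's brightest probe, from high to low. For Esr1 the order was WD SW liver, CD NW liver and tumor, and for Egfr it was CD NW liver, WD SW liver and tumor, with overlapping liver groups and tumors below both. On the other bright Egfr probes the order was the same, but tumors overlapped WD SW livers. On the NM_007912 probes WD SW minus CD NW was -0.92 and -0.90. For Insr, Gcgr, Lifr and Pgrmc1 all neighbors in the order overlapped. Across the 15 arrays Esr1 and Egfr correlated at r = 0.80, and at 0.33 with group means removed. Insr and Gcgr correlated at r = 0.53 over the arrays and at 0.86 with group means removed. The arrays share tissue groups and mice, and these values are descriptions.

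Among 8988 genes above background on at least 5 of the 15 arrays, those with the pattern most like Esr1 were Acpp, which encodes an acid phosphatase (r = 0.91), and Nfyc, a subunit of the factor that binds CCAAT boxes (r = 0.90). For Egfr they were Serpina11, a member of the serpin family (r = 0.91), and Prepl, a prolyl endopeptidase-like protein (r = 0.89). Nfyc differed far less than Esr1, with mean levels of 10.27 in tumors, 10.62 in WD SW livers and 10.76 in CD NW livers. Acpp had mean levels of 4.34 in tumors, 6.02 in WD SW livers and 6.39 in CD NW livers, and Prepl 7.04, 9.25 and 9.96 in the same order. The Acpp mean in tumors lay below the lowest signals measurable on the arrays, at 5.09 to 5.75. Insr was most like Nab2 (r = 0.91) and Mfsd4b1 (r = 0.90), Gcgr most like Cnot10 (r = 0.88) and Cnot2 (r = 0.85), Lifr most like Nono (r = 0.79) and 9130019O22Rik (r = 0.78), and Pgrmc1 most like Epg5 (r = 0.84) and Pnldc1 (r = 0.83). Lifr was above background on 7 of the 15 arrays, and Pnldc1 averaged 4.86 to 5.02, so those patterns are imprecise. With group means removed, r was 0.69 for Acpp, 0.76 for Nfyc, 0.83 for Serpina11 and 0.67 for Prepl. For the other pairs it was 0.75 to 0.88. Cnot10 and Cnot2 are both subunits of the CCR4-NOT complex, which shortens the tails of mRNAs.

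Markers of cell types were set beside these values, as bulk tissue does not tell fewer cells of a type from less RNA per cell. The 10 hepatocyte markers were all above background, with a summed signal of 113689 to 134406 in tumors, 129136 to 153680 in WD SW livers and 135996 to 165786 in CD NW livers, the sums being carried by its brightest members. None of the 10 was called between the livers. In tumors against WD SW livers none was called without the block, and with the mouse as a block Cps1 and Ass1, enzymes of the urea cycle, were lower, by limma's fit: Cps1 at -2.78 (SE 0.86 without the block, adjusted p = 0.100, and 0.0267 with it) and Ass1 at -1.67 (SE 0.52, adjusted p = 0.0993, and 0.0115 with it). Apoa1, Trf, Ttr, Apob and Hnf4a differed by 0.03 at most in either direction. Alb differed by 0.09 (SE 0.36), Serpina1a by -0.45 (SE 0.17) and Fgb by -0.63 (SE 0.48), called in neither fit. Of the 10 hepatocyte markers, 8 had differences below 0. Of the 5 tested endothelial markers, Stab2 was lower in tumors without the block, and Stab2 and Clec4g with it. Summed endothelial markers ranged from 349.8 to 1993 in tumors, 810.4 to 4791 in WD SW livers and 2266 to 4653 in CD NW livers, with Kdr near background. That sum was carried mostly by Clec4g, at mean levels of 9.11, 10.79 and 11.52 in the same order. In tumors against WD SW livers Lyve1 differed by 0.02, Pecam1 by -0.10 and Cdh5 by -0.48, called in neither fit. Means of Cdh5, Lyve1, Pecam1 and Stab2 were higher in WD SW than in CD NW livers, and that of Clec4g lower. Stellate cell and fibroblast markers summed to 253.5 to 2717 in tumors, 1074 to 7945 in WD SW livers and 2141 to 5510 in CD NW livers, with Col1a1 and Col1a2 near background, and Dcn was lower with the block. Dcn carried most of that sum, at mean levels of 9.82, 11.55 and 11.84 in the same order. In tumors against WD SW livers Col3a1 differed by -0.52, Lrat by -1.08 and Des by -0.09, called in neither fit. Means of Col3a1, Lrat and Des were higher in WD SW than in CD NW livers, and that of Dcn lower. Of the cholangiocyte markers only Sox9 was above background, and it differed by -1.99 (SE 0.71) in tumors and was called in neither fit. All 7 macrophage markers lay lower in tumors than in WD SW livers, with a median difference of -1.08 and sums of 1706 to 5949 against 3952 to 19130, none of them called without the block and 4 of them, Adgre1, C1qb, Csf1r and Mpeg1, with it. With the block S100a8 of the neutrophil markers was lower and Cela1 of the pancreatic acinar markers higher, and no lymphocyte or erythroid marker was called in either fit. Between WD SW and CD NW livers, all 7 tested macrophage markers were higher, with sums of 3952 to 19130 against 747.0 to 1484, as were both tested neutrophil markers. There 1 of 4 erythroid and 1 of 2 pancreatic acinar markers were lower, and no endothelial, stellate or cholangiocyte marker was called. The lymphocyte marker tested, Cd79b, was called higher, but its CD NW levels, 4.64 to 5.08, were below the lowest signal measurable on any CD NW array. It passed the filter only through the WD SW livers, so nothing is read from that call. Cd2, Cd3e and Cd3g did not pass the filter. Xist was near background on all arrays, and 3 transcripts of the Y chromosome, of which Eif2s3y and Kdm5d were lower in tumors with the block, summed to 228.6 to 1315 in tumors, 1128 to 1383 in WD SW livers and 841 to 1591 in CD NW livers. The array closest to WD SW liver 5R was tumor 5R (r = 0.980), whereas each of the other 4 WD SW livers was closest to another WD SW liver. Without both arrays of mouse 5R, tumors differed from WD SW livers by -1.80 in Esr1 and by -2.02 in Egfr. What part any of these played in the receptor levels was not tested.

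The genes around the receptors, their ligands, partner receptors, transducers and targets, were counted from lists of 192 genes, 171 with a probe. In tumors against WD SW livers, 3 of 116 tested genes were higher and 8 lower at an adjusted p under 0.05 in limma's fit, together 9.48%, against 4.0% of all genes. With the mouse as a block, 9 were higher and 16 lower, against 10.4% of all genes. Their median difference was -0.16, beside 0.00 over all genes tested. In WD SW against CD NW livers, 6 of 111 were higher and 3 lower, together 8.11%, against 9.79% of all genes, with a median of -0.01 beside -0.05. The lists were chosen with earlier results known and carry no test of their own.

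In the EGF receptor family, the ligand Nrg4 was lower in tumors, 1 of 17 tested genes (5.88%, against 4.0% of all genes). With the mouse as a block, 3 were higher (Nrg1, Dusp6 and Ccnd1) and 2 lower (Nrg4 and Errfi1), against 10.4% of all genes. Nrg4 encodes neuregulin 4, a ligand of ErbB4. It gave 7.22, 7.46, 5.22, 6.25 and 4.82 in tumors of mice 4N, 4R, 5N, 5R and 6L, against 9.43, 10.03, 8.59, 8.12 and 8.56 in their livers and 6.55, 6.76, 7.68, 7.68 and 8.67 in CD NW livers 1L, 1R, 2L, 2N and 3N. Nrg4 was above background in 4 of 5 tumors and in all livers. No tumor reached a WD SW liver, and the higher tumors lay among the CD NW livers. The difference from WD SW livers was -2.75 (SE 0.53, adjusted p = 0.0165), and WD SW minus CD NW was 1.48 (SE 0.44) at an adjusted p of 0.0553. Most other ligands of the family could not be measured: Hbegf, Ereg, Epgn and Nrg3 were above background on no array and Tgfa on 1, Egf on 7 of 15. Btc, which encodes betacellulin, differed by 0.24 (SE 0.30) in tumors, and Nrg1 by 0.72 (SE 0.25, adjusted p = 0.138, and 0.0441 with the mouse as a block). Nrg1 was above background in only 3 of 5 tumors and 2 of 5 WD SW livers, so the size of its difference is imprecise. Erbb2 was above background on no array, and Erbb4 did not pass the filter on dim probes in either comparison. In WD SW livers Fos, an immediate early transcription factor, was higher by 1.31 (SE 0.36, adjusted p = 0.0392), a call kept in 5 of 18 alternatives.

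Around Met, the ligand Hgf was above background in 1 of 5 tumors, 4 of 5 WD SW livers and 4 of 5 CD NW livers, and tumors differed from WD SW livers by -1.12 (SE 0.35, adjusted p = 0.100, and 0.00991 with the mouse as a block). Hgfac, the protease that activates hepatocyte growth factor, gave 11.11, 11.03, 10.78, 10.84 and 10.27 in tumors, against 12.03, 12.03, 11.85, 11.80 and 12.04 in the WD SW livers of the same mice. All tumors were below all livers, and the difference was -1.14 (SE 0.16, adjusted p = 0.00421). Between the livers Hgfac was lower in WD SW (log2 difference -0.31, SE 0.09, adjusted p = 0.0449), a call kept in 6 of 19 alternatives. Crk, an adaptor protein, was higher in WD SW livers by 0.44 (SE 0.12, adjusted p = 0.0472), kept in 6 of 19 as well.

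Among estrogen and progesterone genes, Sult1e1 moved in both comparisons and in opposite directions. It encodes the estrogen sulfotransferase, which inactivates estrogens. Its levels were 5.0, 5.80, 5.50, 6.91 and 5.58 in tumors of mice 4N, 4R, 5N, 5R and 6L, against 7.60, 8.40, 6.90, 8.56 and 7.80 in their livers, and 5.05, 4.56, 4.21, 4.35 and 4.67 in CD NW livers 1L, 1R, 2L, 2N and 3N. It was above background on no CD NW liver, on all WD SW livers and in 4 of 5 tumors. Sult1e1 was at least 5.25-fold higher in WD SW than in CD NW livers, a bound set by the lowest signal measurable on each CD NW array. In that comparison it passed the filter on dim probes only through the WD SW livers, so no support is drawn from its call there. Tumors were below WD SW livers (log2 difference -2.09, SE 0.38, adjusted p = 0.0129), and tumor 5R, at 6.91, was level with liver 5N, at 6.90.

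Hsd17b2, the dehydrogenase that turns estradiol into estrone, was lower in tumors (log2 difference -0.73, SE 0.17, adjusted p = 0.0405), and Foxa1, a pioneer factor for estrogen receptor binding, was higher by 0.78 (SE 0.19, adjusted p = 0.0406). These were kept in 10 and 12 of 21 alternatives. Nenf, which encodes the secreted protein neudesin of the Pgrmc1 family, was higher in WD SW livers by 0.65 (SE 0.14, adjusted p = 0.0140) with no overlap. Cyp51, a cytochrome P450 of cholesterol synthesis that binds Pgrmc1, was lower in WD SW livers (log2 difference -2.13, SE 0.50, adjusted p = 0.0226), although WD SW liver 5R, at 10.01, lay among the CD NW livers at 9.53 to 10.49.

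**Figure D4:**
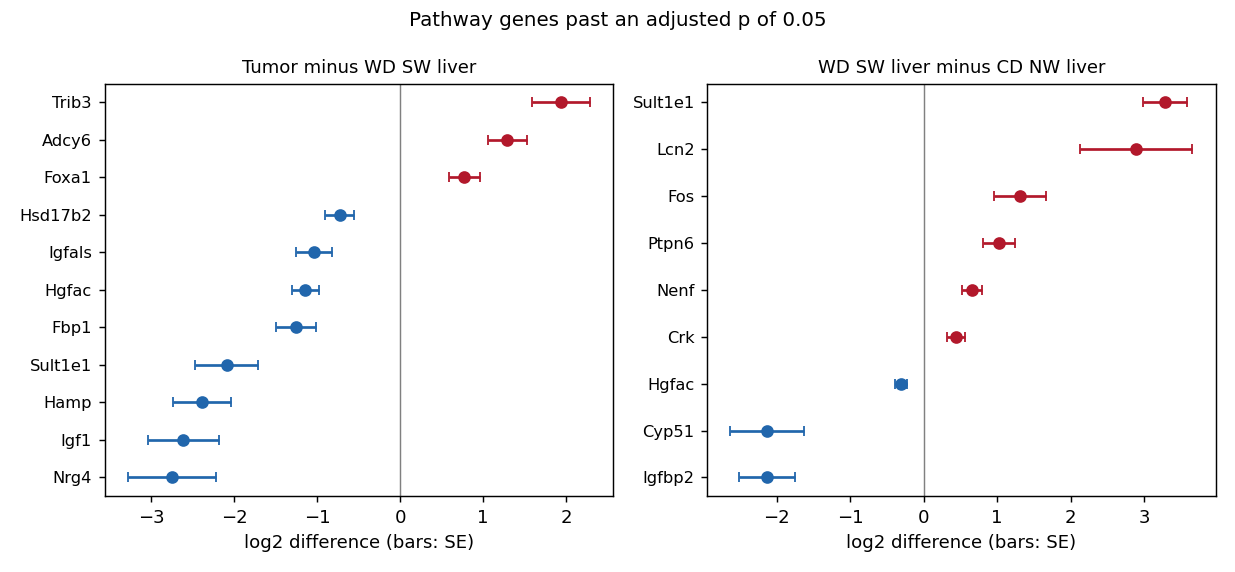
Log2 differences (x axis, bars SE) of the pathway genes past an adjusted p of 0.05, for tumor minus WD SW liver (left) and WD SW liver minus CD NW liver (right). In tumors 3 genes lie above 0 and 8 below, and in WD SW livers 6 lie above and 3 below, with Sult1e1 and Hgfac in both panels. The Sult1e1 point on the right rests on CD NW signals not above background.

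In the list of prolactin, growth hormone and STAT5 genes, Igf1 and Igfals were lower in tumors, 2 of 9 tested, against 4.0% of all genes. The same 2 were called with the mouse as a block, against 10.4% of all genes. None of 8 was called between the livers, against 9.79% of all genes. Igf1, the growth factor that liver secretes under growth hormone, gave 9.81, 9.57, 8.08, 10.88 and 8.58 in tumors of mice 4N, 4R, 5N, 5R and 6L, against 12.34, 12.17, 11.96, 11.64 and 11.90 in their livers, and 11.98 to 12.37 in CD NW livers. The groups did not overlap, and the difference was -2.62 (SE 0.43, adjusted p = 0.00808). Igfals, which encodes the subunit that holds IGF1 in its serum complex, was lower there too (log2 difference -1.04, SE 0.21, adjusted p = 0.0222). The growth hormone receptor Ghr differed by -0.33 (SE 0.20, adjusted p = 0.405, and 0.214 with the mouse as a block) and Prl and Gh were at background on all arrays.

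Around Insr and Gcgr, Trib3, a pseudokinase that binds AKT, was higher in tumors with no overlap, at 11.01, 10.61, 9.93, 9.67 and 9.88 against 9.20, 7.40, 7.96, 8.70 and 8.15 in the livers of the same mice, a difference of 1.94 (SE 0.35, adjusted p = 0.0117). CD NW livers ranged from 8.26 to 10.39 and overlapped both. Adcy6, an adenylyl cyclase that makes cAMP below the glucagon receptor, was higher in tumors by 1.29 (SE 0.24, adjusted p = 0.0133), and Fbp1, the gluconeogenic fructose bisphosphatase, lower (log2 difference -1.26, SE 0.24, adjusted p = 0.0160). Tumors held 7.89 to 8.57 of Adcy6 and 9.63 to 11.13 of Fbp1, against 6.64 to 7.85 and 11.46 to 11.88 in WD SW livers. Igfbp2, an IGF binding protein whose transcript insulin lowers, was lower in WD SW livers (log2 difference -2.13, SE 0.38, adjusted p = 0.00630), at 7.68 to 10.10 against 10.98 to 11.30 in CD NW livers. Ins2 and Gcg, which encode the hormones themselves, were at background on all arrays.

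Of 20 tested genes of LIF, IL-6 and gp130 signaling, 1 was lower in tumors (5.0%, against 4.0% of all genes). With the mouse as a block 4 were lower, against 10.4% of all genes, and none was higher in either fit. Hamp, which encodes the iron hormone hepcidin and is a STAT3 target, was lower in tumors. It gave 11.41, 12.55, 12.10, 10.26 and 11.94 in tumors, against 14.18, 13.90, 13.74, 14.00 and 14.39 in the WD SW livers of the same mice, a difference of -2.39 (SE 0.35, adjusted p = 0.00467) with no overlap. The gp130 gene Il6st, which was above background on all arrays, differed by -0.55 (SE 0.21, adjusted p = 0.167). In WD SW livers Ptpn6, the phosphatase SHP-1 that is abundant in leukocytes, was higher by 1.02 (SE 0.22, adjusted p = 0.0153), and Lcn2, an acute phase protein, by 2.89 (SE 0.77, adjusted p = 0.0366). The tested macrophage and neutrophil markers were higher in the same livers, and what part those cells played in these values was not tested. The Lcn2 call was kept in 11 of 19 alternatives. Of the ligands, Ctf1 was measurable and differed by -0.31 (SE 0.26) in tumors, while Il6, Lif, Il11, Osm, Clcf1 and Cntf were above background on no array.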

How the data were processed

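Signal intensities of 45281 probes on 15 Illumina mouse BeadChip arrays, deposited by the authors without normalization or control probes, were used, and the authors' own processed intensity values were an alternative. The sources used here do not say how those were made. The neqc function (limma 3.58.1, R 4.3.3, offset 16) normalized the arrays by quantiles after background correction, with 1526 odorant, vomeronasal and trace amine receptor probes standing in for negative controls, and values are log2. Raw medians were 88.4 to 109.0, and 12293 to 15829 probes per array were above background, so dim genes are imprecise, as are all values from so few arrays. Of the probes, 34885 had 1 symbol, 18 had several and 10378 none, and 34807 were named through RefSeq gene identifiers. A gene was its brightest probe, kept if above background on 5 of the 10 arrays compared. Groups were compared by lmFit and trended eBayes of limma, with Benjamini-Hochberg adjustment over all genes, and the method was tested on simulated arrays. SEs and adjusted p values leave out the pairing by mouse unless the block is named. Tumor and liver of a mouse share its label, and their deviations from group means correlated at r = 0.189 to 0.521 over genes, each above every other liver, so that the mouse pairs them. Blocked counts stand beside the counts they change. Receptors and gene lists were chosen with earlier results of these data known. Named are all receptors, the measured ligands of each list with up to 4 of its called genes per comparison, and the 2 genes most like each receptor. Other pathway genes named were chosen after their values were seen. BeadChips are not named, so batches were not examined. Alternatives were other background corrections, median scaling, the authors' values, other filters, the mean of probes, 1 fit of 15 arrays, array weights, the mouse as a block and arrays left out. Promoter sequences are RefSeq's. Figures used Python 3.11.15 and matplotlib 3.10.9.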

Additional observations from a re-analysis of the deposited data

Results flagged for a closer look

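Of 85 sets of 5 arrays, 4 held an array far from the other 4 by Dixon's criterion, which chance alone meets in about 1 of 20 sets. Insr was 11.05 in WD SW liver 5N, against 11.28 to 11.37 in the other WD SW livers, a step of 0.23 on the log2 scale. Ghr was 12.05 in WD SW liver 6L, against 12.90 to 13.04 in the others. Igfals was 10.65 in tumor 5R, against 9.49 to 9.80 in the other tumors, and 10.23 in CD NW liver 3N, against 11.10 to 11.38 in the other CD NW livers. Why these arrays stood apart was not tested.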

How the results depend on the processing

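Of 220 alternative values of receptor differences, 215 were within 1 SD of the values above and 5 moved: Esr1 in tumors, as given with its levels, and Insr under the mean of its probes, at -0.24 in WD SW livers and -0.15 in tumors. No direction of a called gene turned. Receptors called in tumors numbered 2, beside 347 of all 8674 genes, and 1 without WD SW liver 4R, beside 154 of all genes. With any other single array left out they numbered 2. The receptors were chosen on the same values, so nothing is read from those counts. Genes changed in tumors numbered 347, and 231 with median scaling, 221 when above background on all 10 arrays, 683 in 1 fit of 15 arrays, 552 with array weights, 906 with the mouse as a replicate block and 154 to 467 with an array left out. Genes changed in WD SW livers numbered 825, and 499 when above background on all 10 arrays and 472 to 963 with an array left out. Of these, 62.1% were higher, against 81.4% with median scaling and 49.5% on all 10 arrays. Pathway genes changed numbered 11 in tumors and 25 with the replicate block, and 9 in WD SW livers, 5 on all 10 arrays, 4 in 1 fit of 15 arrays, 15 with array weights and 4 to 11 with an array left out. Among pathway genes, Nrg4, Hgfac, Sult1e1, Igf1, Trib3, Adcy6, Fbp1 and Hamp in tumors and Nenf and Ptpn6 in WD SW livers passed in every alternative that tested them. Sult1e1 in WD SW livers did too, but it passed the filter on dim probes only through those livers. Igfals lost its call without tumor 5N or WD SW liver 4N or 4R, Igfbp2 in 1 fit of 15 arrays, and Cyp51 without WD SW liver 4R or CD NW liver 1L, 1R or 2L. Fos, Crk, Hgfac and Lcn2 in WD SW livers and Foxa1 and Hsd17b2 in tumors were each lost with most single arrays left out. Signals of Met, Erbb3 and Lifr near background set the limit for those genes.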

Other observations

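Igfbp2 and Igf1r stood out in tumor 4N, a pair chosen after their values were seen. Igfbp2, an IGF binding protein, was 12.76 in tumor 4N, against 6.64 to 8.72 in the other tumors and 9.85 in the liver of mouse 4N. Igf1r, the IGF1 receptor, was 7.13 in tumor 4N, its one tumor above background, against 4.28 to 5.25 in the other tumors and 4.64 in the liver of the same mouse. Igf1 and Igfals, at 9.81 and 9.60 in tumor 4N, lay among the other tumors, at 8.08 to 10.88 and 9.49 to 10.65. Igfbp2 was not called between tumors and WD SW livers, and Igf1r did not pass the filter on dim probes.

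Several pathway genes passed an adjusted p of 0.05 in tumors with limma's fit only once the mouse was a block. Igfbp1, which insulin lowers and fasting raises, was higher by 2.77 (SE 0.87 without the block, adjusted p = 0.105, and 0.00271 with it), and Grb10, an adaptor that restrains the insulin receptor, by 1.38 (adjusted p = 0.113, and 0.0175 with it). Ccnd1, the G1 cyclin D1, was higher by 1.16 (adjusted p = 0.236, and 0.0180 with it). Errfi1, an inhibitor of Egfr, was lower (log2 difference -0.70, adjusted p = 0.113, and 0.0199 with it), Pck1, of gluconeogenesis, likewise (-1.84, adjusted p = 0.172, and 0.0172 with it), and the acute phase gene Saa1 too (-2.14, adjusted p = 0.395, and 0.0160 with it).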
